A study of Mus musculus with 20 samples.

Results

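The BCL2 family was followed through bone marrow RNA of 20 mice, as the read counts of 9 genes and the counts of their splice junctions. The genes were chosen by symbol (*Mcl1*, *Bcl2l1*, *Bcl2*, *Bcl2l2*, *Bak1*, *Bcl2l11*, *Bid*, *Bad* and *Bik*), and each matched 1 row of the 37620 genes counted. Their junctions were 167 of the 554616 in the junction table. No measured value was used as a rule for the choice, but earlier results of these data were known when it was made.

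The mice were wild-type (C57BL/6 × 129S4Sv/Jae)F1 recipients, 6 to 12 weeks old at the outset, that had been lethally irradiated and given pooled marrow of 2 to 3 transgenic donors aged 8 to 12 weeks. The donor cells carried rtTA and a doxycycline-inducible transgene, either U2AF1(WT) or U2AF1(S34F), a mutant of the U2AF1 splicing factor found in myelodysplastic syndromes. After more than 6 weeks of engraftment all recipients ate doxycycline chow (625 ppm) for 7 days, and during the last 5 of these days they received intravenous sudemycin D6 (50 mg per kg per day), a compound whose target is SF3B1 in the spliceosome, or its vehicle (HP-β-CD in phosphate buffer). The 4 groups held 5 mice each and are called U2AF1(WT) vehicle, U2AF1(WT) sudemycin, U2AF1(S34F) vehicle and U2AF1(S34F) sudemycin, in this order. Bulk marrow was collected 18 h after the last infusion, so every value averages over all cell types present, the residual cells of the host included. Mice of 1 genotype may share donor pools, so the spread between mice may understate the spread between independent transplants.

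Depth was 41145892 to 62138138 gene counts and 34384214 to 64813149 junction counts per mouse. *U2af1* itself averaged 36.1, 42.1, 51.1 and 55.2 CPM in the 4 groups in the order above, without separation of transgene and endogenous transcripts. CPM is the counts of a gene scaled to the summed gene counts of the mouse, with TMM scaling between mice. *Xist* had 39145 to 78640 counts in each U2AF1(WT) mouse and 1 to 8 in each U2AF1(S34F) mouse, and 4 Y-linked genes together had 0 to 4 and 10270 to 15034. Differences by transgene and by these sex-linked transcripts cannot be told apart. U2AF1(WT) vehicle mouse 2 and U2AF1(WT) sudemycin mice 8 and 9 stood apart from their groups in 9 B cell marker genes, whose summed CPM was 43.9, 35.6 and 24.6 against 118 to 170 in the other 7 U2AF1(WT) mice. Results that rest on these 3 mice are given with and without them. The 3 mice were picked after the data were seen, and U2AF1(S34F) mice with sums as low were kept. Fits without them therefore cannot separate genotype from the marker sum.

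BCL2 family proteins decide whether the outer membrane of the mitochondrion is opened, the step that commits a cell to apoptosis. The anti-apoptotic members (MCL1, BCL-XL from *Bcl2l1*, BCL2 and BCL-W from *Bcl2l2*) bind and restrain the effectors BAK and BAX, which form the pores. The BH3-only members (BIM from *Bcl2l11*, BID, BAD and BIK) neutralise the anti-apoptotic proteins, and BIM and truncated BID can also activate the effectors. Maturing neutrophils and haematopoietic stem cells depend on MCL1, erythroid precursors on BCL-XL and mature lymphocytes on BCL2. Alternative splicing of *Mcl1*, *Bcl2l1* and *Bcl2l11* changes the activity of the protein and can turn an anti-apoptotic product into a pro-apoptotic one.

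*Mcl1* was the most abundant member in every mouse. Divided by exonic length, it averaged 179 CPM per kb over the 20 mice (range 136 to 279), 7.11 times the next gene. *Bak1* followed with 25.2 CPM per kb (19.1 to 33.1) and *Bid* with 19.3 (16.6 to 23.0), and their ranges overlapped. The next 5 lay lower and each overlapped the one after it: *Bad* (7.24 CPM per kb), *Bcl2l1* (6.32), *Bcl2l11* (4.91), *Bcl2* (3.51) and *Bcl2l2* (2.97). *Mcl1* and *Bak1*, *Bid* and *Bad*, and *Bcl2l2* and *Bik* did not overlap. *Bik* was close to absent, with 1 to 14 counts per mouse and 0.120 CPM per kb, and it fell below the filter on low counts, so 8 of the 9 genes were tested.

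**Figure D1:**
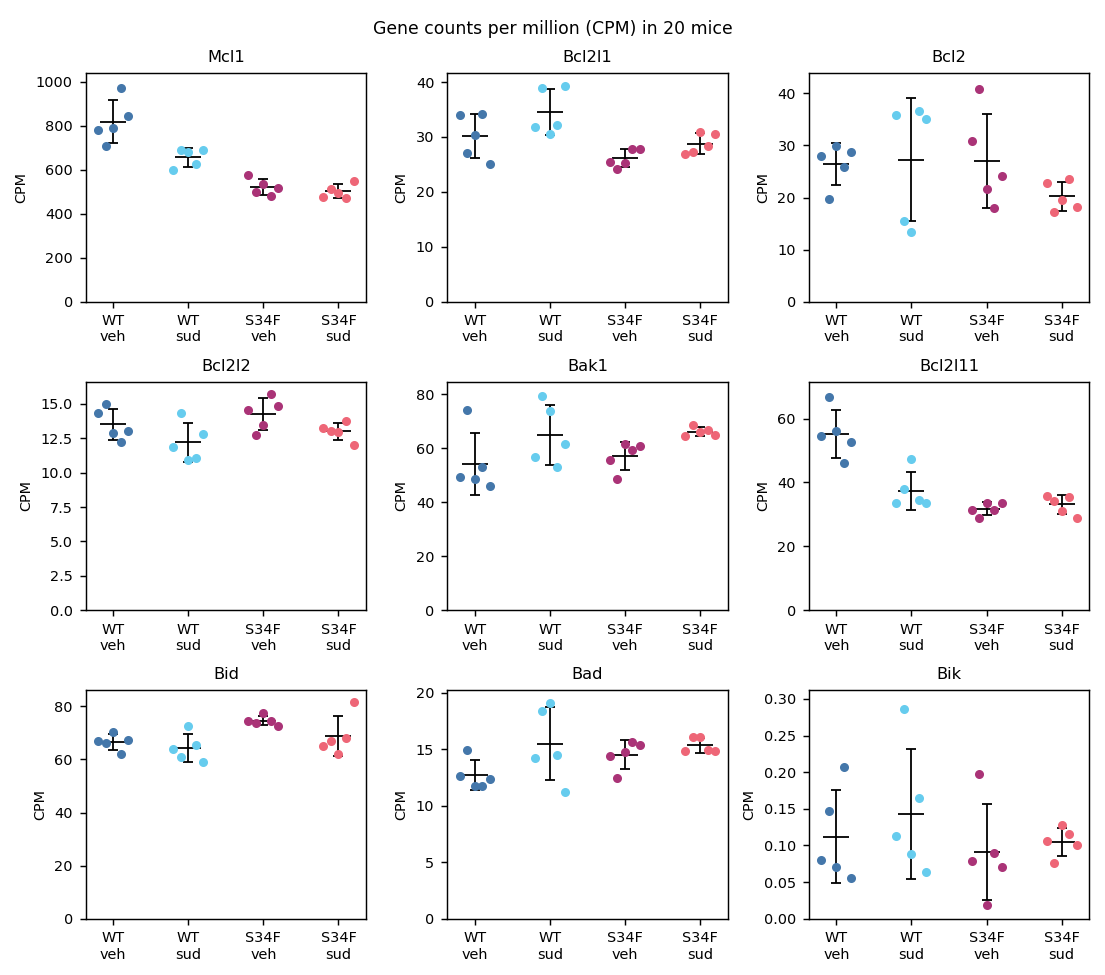
CPM (vertical axis of each panel, from 0) of the 9 BCL2 family genes in 20 mice; each point is a mouse, and the bar and whiskers give the mean and SD of the 5 mice of a group. *Mcl1* and *Bcl2l11* are highest in U2AF1(WT) vehicle mice, and *Bcl2* splits the U2AF1(WT) sudemycin mice into 3 high and 2 low values.

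Expression was compared between genotypes under each treatment, and between treatments within each genotype, with the edgeR quasi-likelihood test and Benjamini-Hochberg adjustment over all genes (called at FDR<10%). Comparisons that share a group of mice are not independent of each other. Between the vehicle-treated genotypes 4 of the 8 tested members changed, 1 higher and 3 lower in U2AF1(S34F), where 39.5% of all genes did (19.7% higher, 19.8% lower), and 3 had groups that did not overlap, against 19.5% of all genes. Under sudemycin 2 members were lower in U2AF1(S34F) and none higher (36.8% of all genes called, 17.2% higher and 19.6% lower), and 1 did not overlap (20.1%). Sudemycin lowered 1 member in U2AF1(WT) mice (3.07% of genes called, 1.18% higher and 1.89% lower) and raised 1 in U2AF1(S34F) mice (10.8% called, 4.94% higher and 5.85% lower). In each of these, 1 member did not overlap between treatments, where 4.27% and 7.41% of all genes did not. Over both genotypes together, with genotype as a term, the drug raised 2 members and lowered 1 (15.2% called, 7.92% higher and 7.31% lower). U2AF1(S34F) sudemycin against U2AF1(WT) vehicle mice, the pair that differs in both, gave 2 higher and 3 lower (50.2% called, 25.1% in each direction) and 2 without overlap (23.7%). The interaction of genotype and drug called 0 members in edgeR (1 with an unadjusted p under 0.05) and 1 in DESeq2, where edgeR called 0.013% of genes. The median log2 fold change of the members was 0.04, −0.13, 0.00 and −0.01 in the first 4 comparisons, and that of all genes was 0.00, −0.03, 0.00 and −0.01.

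**Figure D2:**
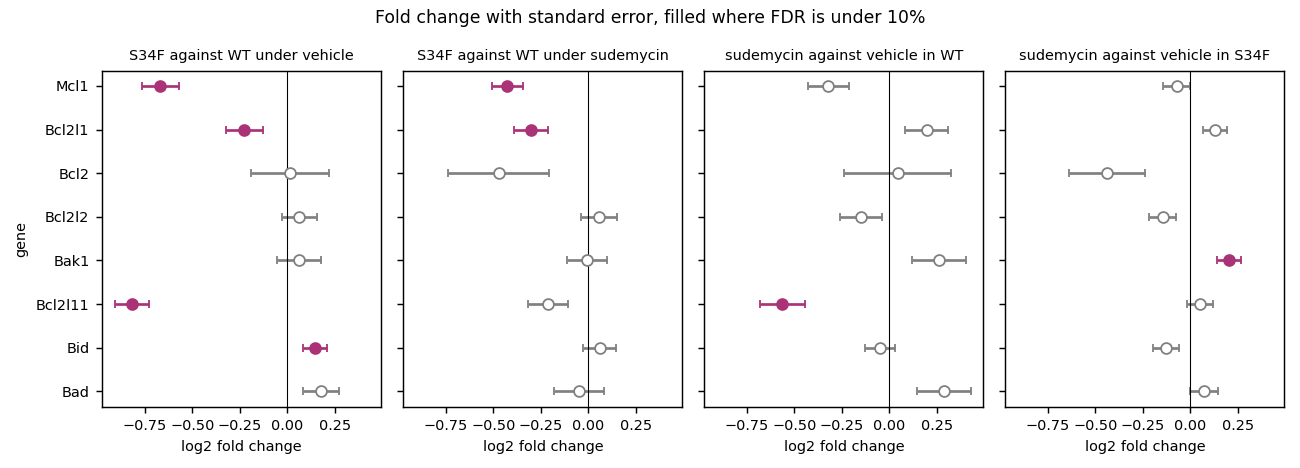
Log2 fold change (horizontal axis) of 8 BCL2 family genes in 4 comparisons, with bars of 1 standard error; filled points have FDR<10%. *Mcl1* (−0.67) and *Bcl2l11* (−0.82) lie farthest from 0 between the vehicle-treated genotypes, and *Bcl2l11* (−0.56) is the only filled point for the drug in U2AF1(WT) mice.

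*Mcl1* (chr3:95462643-95467099, plus strand, mm9) was lower in U2AF1(S34F) marrow under both treatments. It had 779, 707, 792, 973 and 842 CPM in the U2AF1(WT) vehicle mice and 577, 500, 536, 481 and 517 in the U2AF1(S34F) vehicle mice. Under sudemycin it had 597, 692, 679, 625 and 689 CPM in U2AF1(WT) mice, against 476, 514, 493, 473 and 551 in U2AF1(S34F) mice. Every U2AF1(WT) mouse thus lay above every U2AF1(S34F) mouse of the same treatment. *Mcl1* fell by 37.02% between the vehicle-treated genotypes (log2 fold change −0.67, SE 0.10, FDR=0.000441) and by 0.43 on the log2 scale under sudemycin (SE 0.08, FDR=0.00307). The drug comparison in U2AF1(WT) mice also had no overlap, yet its log2 fold change of −0.32 (SE 0.11) missed the threshold (FDR=0.188). It passed in DESeq2 (FDR=0.0984), in one model of all 20 mice (FDR=0.0605) and without the 3 mice of low B cell marker sum (−0.42, FDR=0.0246). In U2AF1(S34F) mice the drug difference was −0.07 (2 SE either side, −0.21 to 0.07). The test of the difference between these drug effects gave 0.23 (SE 0.13, FDR=0.722). Over both genotypes together the drug lowered *Mcl1* by 0.18 on the log2 scale (SE 0.07, FDR=0.0788). This call was lost with no filter on low counts (FDR=0.108) and in several fits without 1 mouse (FDR up to 0.144).

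The splice junctions of *Mcl1* also separated the genotypes. They were compared with exact two-sided permutation tests of RPM, a measure chosen after the gene results were seen. RPM is the reads of a junction scaled to the plain junction total of the mouse, without the TMM scaling used for CPM. The tests were adjusted over 32 tests of 8 junctions, and 5 against 5 mice cannot give a p below 0.00794. The junction from exon 1 to exon 2 averaged 54.9 RPM in U2AF1(WT) vehicle mice and 28.0 in U2AF1(S34F) vehicle mice, 49.0% lower with no overlap (exact permutation p=0.00794, adjusted 0.0363). The junction from exon 2 to exon 3 averaged 75.3 and 47.1, and 56.1 and 46.0 under sudemycin, both without overlap (adjusted p=0.0363, exact permutation). In U2AF1(WT) mice this junction was 25.5% lower under the drug, again without overlap (exact permutation, adjusted p=0.0363), while the junction from exon 1 to exon 2 differed by 10.5% with overlap (exact permutation p=0.492). Junction reads per gene count, a ratio that falls when more of a gene's reads lie away from junctions, was not called for *Mcl1* by limma (FDR from 0.649 to 0.969 in the 4 single comparisons).

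Inclusion of *Mcl1* exon 2 was close to complete. Skipping this exon removes the membrane anchor and yields a short protein with pro-apoptotic activity, so the bases that end the introns before exons 2 and 3 are shown, with the last 3 intron bases in capitals, because U2AF1 contacts the AG and its neighbouring base. Both run 5′ to 3′ on the plus strand of mm9, at chr3:95463664-95463693 and chr3:95464610-95464639.
Mcl1 exon 2 acceptor: tttcttgcttttcttctCAGgcatgctccg
Mcl1 exon 3 acceptor: ttttcttttttgttttcTAGgatgggtttg
The first has C and the second T before the AG. Of 64029 annotated acceptors read from the same build, 63.9% had C, 30.1% T, 5.81% A and 0.278% G at that base, and of the 41 acceptors of the 9 genes 33 had C, 6 T and 2 A. Junction reads that skip exon 2 numbered 6. The total was 49394, counting the skipping reads and the mean of the 2 inclusion junctions. The pooled share was 0.0121% (95% exact binomial interval on that total 0.00446 to 0.0264%, counting error only). All 6 came from U2AF1(WT) vehicle mouse 2. The other groups had 0 reads, with upper ends of the exact binomial interval of 0.0279% (U2AF1(WT) sudemycin), 0.0344% (U2AF1(S34F) vehicle) and 0.0358% (U2AF1(S34F) sudemycin). In U2AF1(WT) vehicle mice the upper end of the exact binomial interval was 0.0861%. Exon 2 skipping was thus rare in every group, and only differences smaller than these limits would escape detection at this depth, as far as counting error goes.

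*Bcl2l1* (chr2:152593052-152657464, minus strand) was lower in U2AF1(S34F) marrow under both treatments. It had 33.9, 27.1, 30.4, 34.2 and 25.1 CPM in U2AF1(WT) vehicle mice and 25.4, 24.1, 25.3, 27.8 and 27.8 in U2AF1(S34F) vehicle mice. The sudemycin-treated mice had 31.8, 39.0, 30.5, 32.2 and 39.2 CPM (U2AF1(WT)) and 26.9, 27.2, 31.0, 28.3 and 30.5 CPM (U2AF1(S34F)). The genotypes overlapped under both treatments. The log2 fold change was −0.23 under vehicle (SE 0.10, FDR=0.0919), a call that was lost in 7 of the 10 fits that left out 1 mouse, and −0.30 under sudemycin (SE 0.09, FDR=0.0263). Over both genotypes the drug raised *Bcl2l1* by 0.17 on the log2 scale (SE 0.07, FDR=0.0954), a call lost in 13 of 20 fits without 1 mouse and without the 3 mice of low B cell marker sum (0.14, FDR=0.136).

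The junction from exon 2 to exon 3, which joins the 2 coding exons of *Bcl2l1*, separated the genotypes fully. It averaged 2.92 RPM in U2AF1(WT) vehicle mice and 1.89 in U2AF1(S34F) vehicle mice (−35.1%), and 3.80 and 2.10 under sudemycin (−44.7%), without overlap in either (exact permutation, adjusted p=0.0363). The gene count fell less, by 14.5% and 18.8%. Unscaled reads from the 2 main first exons into exon 2 totalled 890 (U2AF1(WT)) and 938 (U2AF1(S34F)) under vehicle. Under sudemycin they totalled 994 and 989, and their rates were not tested. The reads from exon 2 to exon 3 use a donor that keeps the long, anti-apoptotic form, while a donor inside exon 2 gives the short, pro-apoptotic form. Both donors are shown on the minus strand with the first 2 intron bases in capitals, at chr2:152655148-152655177 and chr2:152655337-152655366, with the acceptor of exon 3 at chr2:152608009-152608038.
Bcl2l1 long form donor: gagaacggcggctggGTaagaaccacgccc
Bcl2l1 short form donor: cagagctttgagcagGTagtgaatgaactc
Bcl2l1 exon 3 acceptor: ttccttctctgtccctaTAGgacacttttg
The short form took 19 of 2781 reads, 0.683% (exact binomial interval 0.412 to 1.06%), and these came from 4 mice: U2AF1(WT) vehicle mice 2 (1.10%) and 4 (3.07%), U2AF1(WT) sudemycin mouse 8 (3.83%) and U2AF1(S34F) vehicle mouse 7 (1.46%). U2AF1(S34F) sudemycin mice had 0 of 579 reads (upper end of the exact binomial interval 0.635%), and U2AF1(WT) sudemycin mice 10 of 962, all in mouse 8. No comparison of the short form passed (exact permutation p of at least 0.722, 5 against 5 mice). Most mice of each comparison had no short form reads, so these tests could not pass at any size of difference.

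Upstream of the coding sequence, *Bcl2l1* exon 2 has a pair of acceptors 18 bases apart, of which the upstream one has A before its AG. They lie at chr2:152655847-152655876 and chr2:152655829-152655858 on the minus strand.
Bcl2l1 exon 2 upstream acceptor: attaaatttttctcctgAAGctctctctct
Bcl2l1 exon 2 downstream acceptor: agctctctctctctcttCAGaaccttatct
Of reads from the distal first exon, 14.5, 11.3, 9.64, 10.2 and 9.26% used the upstream acceptor in U2AF1(WT) vehicle mice and 20.8, 14.9, 19.2, 17.6 and 27.1% in U2AF1(S34F) sudemycin mice. These groups did not overlap, and the share of all events without overlap was not counted. U2AF1(WT) sudemycin mice had 30.4, 12.3, 7.08, 29.5 and 22.3%, in which mice 8 and 9 were again the low ones, and U2AF1(S34F) vehicle mice 8.87 to 19.2%. The difference between the first 2 groups named was 8.93 points. It was not called by edgeR (FDR=0.240) and was called by limma (FDR=0.0908), which called 910 of 31424 events in this comparison. The drug over both genotypes gave 7.56 points (edgeR unadjusted p=0.0182, FDR=0.218).

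*Bcl2* (chr1:108434755-108610851, minus strand) was not called between genotypes under vehicle and varied widely between mice. U2AF1(WT) vehicle mice had 28.0, 19.7, 30.0, 25.9 and 28.8 CPM and U2AF1(S34F) vehicle mice 30.8, 40.8, 21.6, 17.9 and 24.2 (log2 fold change 0.01, SE 0.20, FDR=0.968). U2AF1(WT) sudemycin mice had 35.9, 15.5, 13.3, 36.6 and 35.1 CPM, with mice 8 and 9 well below the other 3, and U2AF1(S34F) sudemycin mice 22.8, 17.3, 19.4, 23.5 and 18.1. *Bcl2* was lower in U2AF1(S34F) sudemycin than in U2AF1(WT) vehicle mice (−0.40, SE 0.12, FDR=0.0175), with overlap through mouse 2 of the latter. This call was lost in one model of all 20 mice (−0.40, FDR=0.236). Between genotypes under sudemycin it missed the threshold (−0.47, SE 0.27, FDR=0.209). Without mice 8 and 9 it was lower in U2AF1(S34F) (−0.84, FDR=7.63e-05), and without them and vehicle-treated mouse 2 it was higher under the drug in U2AF1(WT) mice (0.34, FDR=0.0290 against 0.973 with them). These mice were left out for a low B cell marker sum, with which *Bcl2* itself moved (r=0.907). The U2AF1(S34F) sudemycin mice, with sums of 34.9 to 53.6 CPM, were kept. These fits thus cannot decide whether *Bcl2* differs by genotype or drug.

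The level of *Bcl2* moved with B cell markers across mice. On the log2(CPM + 0.5) scale *Bcl2* and the summed markers had r=0.907 and rho=0.929 over 20 mice (permutation p=1e-05 for both, the smallest the resamples can give, adjusted 0.00032 over 64 relations). The r was 0.962 within the 10 U2AF1(WT) mice, 0.894 within the 10 U2AF1(S34F) mice and 0.924 without the 2 mice farthest from the median marker sum. In bulk marrow, fewer cells of a type and less RNA per cell cannot be told apart. The 9 B cell markers summed to 43.9–141 CPM in U2AF1(WT) vehicle mice, 24.6–170 in U2AF1(WT) sudemycin mice, 16.6–164 in U2AF1(S34F) vehicle mice and 34.9–53.6 in U2AF1(S34F) sudemycin mice, and none was at 0 in all mice. All 9 were lower in U2AF1(S34F) sudemycin than in U2AF1(WT) vehicle mice, the comparison in which *Bcl2* was called, and their part in that result was not tested. The junction from exon 1 to exon 2 of *Bcl2* averaged 0.944, 1.13, 0.598 and 0.445 RPM in the 4 groups, on 12 to 86 reads per mouse, and its genotype difference under sudemycin (−60.7%, with overlap) had an adjusted exact permutation p of 0.0952. *Bcl2l2*, which encodes the related BCL-W, had 10.9 to 15.7 CPM in all mice and was not called in any comparison.

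**Figure D3:**
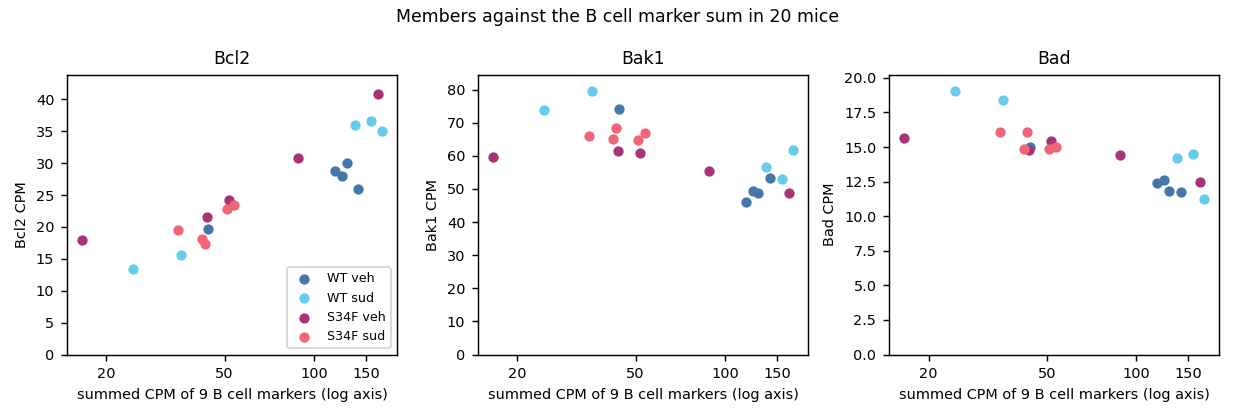
CPM of *Bcl2*, *Bak1* and *Bad* (vertical axes, from 0) against the summed CPM of 9 B cell marker genes (horizontal, log axis); each point is 1 of 20 mice, coloured by group. *Bcl2* rises with the marker sum (r=0.907), while *Bak1* (r=−0.729) and *Bad* (r=−0.821) are lower in mice with a higher sum.

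Among the effectors, *Bak1* (chr17:27156755-27165954, minus strand) rose under sudemycin in U2AF1(S34F) mice, from 55.5, 48.6, 61.5, 59.5 and 60.8 CPM to 64.8, 68.6, 66.1, 67.0 and 64.98. These groups did not overlap (log2 fold change 0.20, SE 0.06, FDR=0.0759), but the call was lost in 7 of 10 fits without 1 mouse. In U2AF1(WT) mice it had 49.3, 74.1, 48.6, 53.2 and 46.0 CPM under vehicle and 56.6, 79.6, 73.7, 53.1 and 61.7 under sudemycin, with overlap (0.26, SE 0.14, FDR=0.463). Over both genotypes the drug raised it by 0.24 (SE 0.08, FDR=0.0578), lost in 5 of 20 fits. It was also higher in U2AF1(S34F) sudemycin than in U2AF1(WT) vehicle mice (0.28, SE 0.11, FDR=0.0502, lost in 3 of 10 fits). Mouse 2 and mice 8 and 9, those with few B cell marker reads, had the highest *Bak1* of their groups. Without them *Bak1* was higher in U2AF1(S34F) under vehicle (0.19, FDR=0.0589) and under sudemycin (0.20, FDR=0.0430, against −0.01 with them). As U2AF1(S34F) mice with low sums were kept, these fits do not test genotype apart from the marker sum. *Bak1* went against the summed B cell markers (r=−0.729, rho=−0.666, adjusted permutation p=0.00491 and 0.01995, −0.817 and −0.630 within genotypes, −0.8925 without the 2 mice farthest from the median sum) and the stem and progenitor markers (r=−0.772, rho=−0.793, adjusted permutation p=0.00149 and 0.00128, −0.862 and −0.808 within genotypes, −0.695 without the 2 farthest mice). In U2AF1(S34F) mice 5 of the 6 stem and progenitor markers fell under the drug, their sum being 146–178 CPM under vehicle and 96.5–133 under sudemycin, and their part in the *Bak1* result was not tested.

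Among the BH3-only members, *Bcl2l11* (chr2:127951774-127988283, plus strand) had the largest change. It had 54.5, 66.9, 56.1, 46.2 and 52.6 CPM in U2AF1(WT) vehicle mice and 31.4, 28.7, 33.7, 31.4 and 33.5 in U2AF1(S34F) vehicle mice. With sudemycin the U2AF1(WT) mice had 33.5, 37.9, 47.4, 34.7 and 33.5 CPM, and the U2AF1(S34F) mice 35.8, 34.2, 31.2, 35.6 and 29.0. U2AF1(WT) vehicle mice were above all U2AF1(S34F) mice, and the other 3 groups overlapped each other. *Bcl2l11* fell by 43.2% between the vehicle-treated genotypes (log2 fold change −0.82, SE 0.09, FDR=5.83e-05). Sudemycin lowered it in U2AF1(WT) mice (−0.56, SE 0.12, FDR=0.0310, with overlap through sudemycin-treated mouse 9), a call kept in all 10 fits without 1 mouse. In U2AF1(S34F) mice the drug difference was 0.05 (2 SE either side, −0.09 to 0.19), and under sudemycin the genotypes differed by −0.21 (SE 0.10, FDR=0.147). The interaction was 0.60 (SE 0.14, unadjusted p=0.000357). It missed the threshold in edgeR (FDR=0.229) and passed in DESeq2 (FDR=0.0308), and without the 3 mice of low B cell marker sum it was 0.68 (edgeR FDR=0.0119).

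Markers of other cells moved in the same contrast as *Mcl1*, *Bcl2l11* and *Bid*. The sum of 10 neutrophil markers was 65090–71493 CPM in U2AF1(WT) vehicle mice and 84107–141320 in U2AF1(S34F) vehicle mice, with 5 of 10 called higher. The sum of 7 T and NK cell markers was 56.3–71.9 and 77.0–93.9 CPM, also without overlap, with 3 called higher and 1 lower. The sums of 7 monocyte and macrophage markers overlapped (1423–1992 and 1186–1661 CPM), with 3 called lower. Under sudemycin the neutrophil sums were 59365–101761 and 75246–122797 CPM, with 3 of 10 higher. Over 20 mice the neutrophil sum had r=−0.631 with *Mcl1* (rho=−0.6075, adjusted permutation p=0.0175 and 0.0243, −0.604 without the 2 farthest mice), and r of −0.029 and 0.158 within U2AF1(WT) and U2AF1(S34F) mice. With *Bcl2l11* it had r=−0.501 (rho=−0.516, adjusted permutation p=0.0765 and 0.0740, −0.412 without the 2 farthest mice, 0.187 and −0.366 within genotypes), and with *Bid* r=0.607 (rho=0.615, adjusted permutation p=0.0255 and 0.0243, 0.466 without the 2 farthest mice, 0.488 and 0.295 within genotypes). The T and NK cell sum had r=−0.718 with *Bcl2l11* (rho=−0.647, adjusted permutation p=0.0041 and 0.0227, −0.6295 without the 2 farthest mice, −0.730 and −0.195 within genotypes) and r=−0.570 with *Mcl1* (rho=−0.573, adjusted permutation p=0.0323 and 0.04015, −0.600 without the 2 farthest mice, −0.396 and −0.130 within genotypes). The part of these cells in the genotype differences was not tested.

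The junction reads of *Bcl2l11* showed smaller genotype differences than its gene count. The junction from exon 1 to exon 2 averaged 1.42 RPM in U2AF1(WT) vehicle mice and 1.505 in U2AF1(S34F) vehicle mice (exact permutation p=0.746), where the gene count was 43.2% lower. The junction from exon 2 to exon 3 was lower by 24.7% and that from exon 3 to exon 4 by 33.5%, both with overlap (exact permutation p=0.0476 for each, adjusted 0.152). Junction reads of annotated introns per gene count were 0.111, 0.09996, 0.0898, 0.142 and 0.139 in U2AF1(WT) vehicle mice and 0.135, 0.196, 0.196, 0.166 and 0.205 in U2AF1(S34F) vehicle mice. Only the lowest of the latter reached into the range of the former. This ratio rose by 0.63 on the log2 scale (limma, SE 0.16, FDR=0.0787), in 1 of 6 members tested, where 4.21% of genes were called (3.63% higher, 0.579% lower) and the median over all genes was 0.05. The call was lost in 6 fits that left out 1 mouse of either group (FDR from 0.106 to 0.189) and with a minimum mean of 10 reads (FDR=0.134). With sudemycin the ratios were 0.165, 0.181, 0.142, 0.159 and 0.154 in U2AF1(WT) mice, against 0.166, 0.204, 0.180, 0.201 and 0.215 in U2AF1(S34F) mice. Those of U2AF1(S34F) sudemycin mice were all above U2AF1(WT) vehicle mice (0.75, SE 0.15, FDR=0.0205, 1.88% of genes called, 1.46% higher and 0.425% lower). The sudemycin groups differed by 0.27 between genotypes (FDR=0.172), where 6.51% of genes were called, 1.57% higher and 4.94% lower. In U2AF1(WT) mice the drug difference was 0.48 (SE 0.15, FDR=0.420, 0.029% of genes called). *Mcl1*, *Bcl2l1*, *Bak1*, *Bid* and *Bad* were not called on this measure. *Bcl2* and *Bik* had too few junction reads, and *Bcl2l2* shares junctions with the readthrough gene *Gm20521*.

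**Figure D4:**
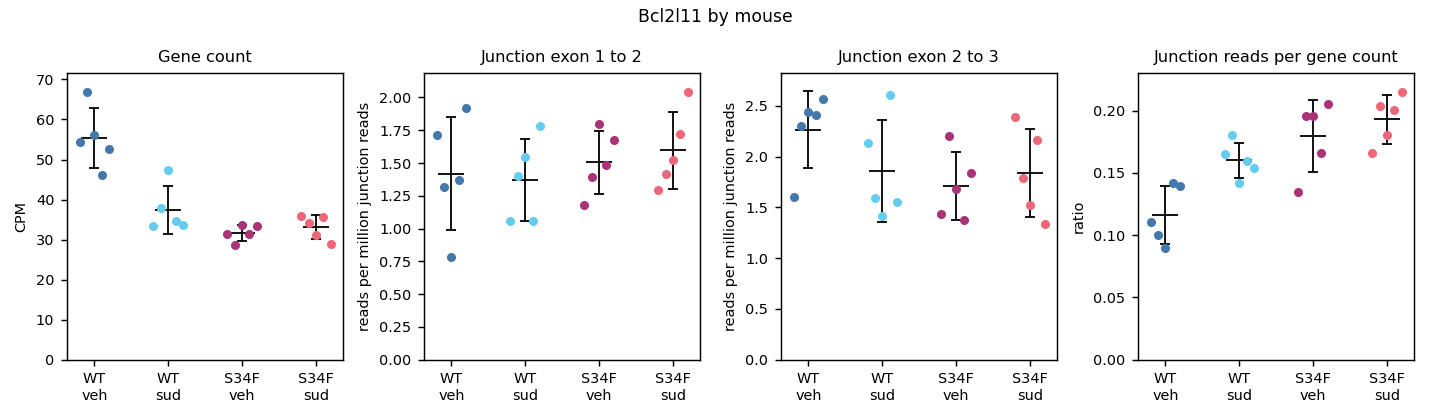
*Bcl2l11* in 20 mice as gene CPM, RPM of 2 junctions and junction reads per gene count (vertical axes from 0); points are mice, and bars and whiskers are the mean and SD of 5. The gene count is highest on average in U2AF1(WT) vehicle mice, with 1 U2AF1(WT) sudemycin mouse inside their range, the group means of the junction from exon 1 to exon 2 lie between 1.37 and 1.60, and the ratio is lowest in U2AF1(WT) vehicle mice.

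The forms of BIM are set within and after exon 2 of *Bcl2l11*. An intron inside this exon is kept in the extra-long form and removed in the long form, and splicing from its donor straight to exon 3 gives the short form, the most potent. The sites are shown on the plus strand with the first 2 intron bases of donors and the last 3 of acceptors in capitals, at chr2:127954478-127954507, chr2:127954641-127954670, chr2:127954736-127954765 and chr2:127972801-127972830.
Bcl2l11 internal donor: agacagaaccgcaagGTaatcccgacggcg
Bcl2l11 internal acceptor: gtatttctcttttgacaCAGacaggagccc
Bcl2l11 exon 2 end donor: atctcagtgcaatggGTaagccatagctgg
Bcl2l11 exon 3 acceptor: tttctttgcctcccgagCAGcttccatacg
Of 2166 reads that spliced into exon 3 from either donor, the short form took 172, and its share averaged 5.63% ± 4.13 (SD, n=5), 10.3% ± 7.11, 5.95% ± 7.25 and 9.27% ± 6.32 in the 4 groups in the order of the opening. The short form ranged from 0 to 20.8% across mice, and the groups overlapped (exact permutation p from 0.246 to 0.929). Reads that removed the internal intron lie on another junction, so their percentage is a ratio to the same total and not a part of it. The ratio was 33.5% ± 7.81, 30.3% ± 9.17, 33.8% ± 8.56 and 31.6% ± 14.04 (SD, n=5), with exact permutation p from 0.556 to 0.944. With 522 to 563 reads per group over 5 mice, the genotype difference under vehicle in the internal intron was 0.284 points with an SE of 5.18, so a shift of several points was not detectable. A splice from the end of exon 2 to an alternative end nearby, examined after the files were seen, took 2.73% ± 2.73, 8.33% ± 4.87, 6.16% ± 1.10 and 5.68% ± 3.82 (SD, n=5). The vehicle-treated genotypes differed by 3.43 points (exact permutation p=0.0397) and the drug groups of U2AF1(WT) mice by 5.5997 (exact permutation p=0.0556), and neither passed the adjustment over 28 share tests (0.370 and 0.389).

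**Figure D5:**
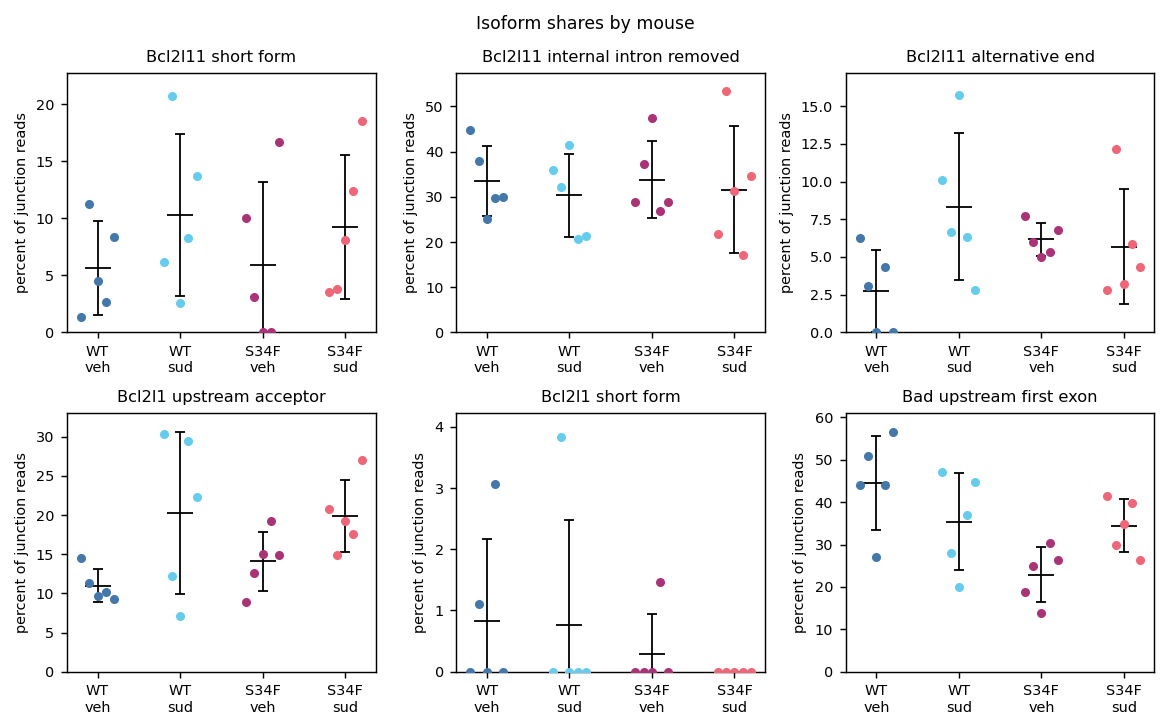
Share of junction reads (percent, vertical axes from 0) that used 6 alternative splice choices of *Bcl2l11*, *Bcl2l1* and *Bad*; each point is a mouse, with the mean and SD of 5 mice. The forms of *Bcl2l11* overlap between all groups, and the upstream first exon of *Bad* is lowest in U2AF1(S34F) vehicle mice (22.9% on average).

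*Bid* (chr6:120841948-120866871, minus strand), which links death receptors to mitochondria, was higher in U2AF1(S34F) vehicle mice, with 74.5, 73.8, 77.4, 74.3 and 72.8 CPM against 67.1, 66.2, 70.5, 62.0 and 67.2 in U2AF1(WT) vehicle mice. The groups did not overlap, and the change was small (log2 fold change 0.14, SE 0.06, FDR=0.0968) and lost in 8 of 10 fits without 1 mouse. The neutrophil marker sums given above separated the same groups, and their part in the *Bid* result was not tested. Sudemycin-treated mice had 59.0 to 72.5 CPM (U2AF1(WT)) and 62.1 to 81.6 CPM (U2AF1(S34F)), with overlap.

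*Bad* (chr19:7016351-7026388, plus strand), whose protein links growth factor signalling to apoptosis, had 12.6, 14.97, 11.8, 11.7 and 12.4 CPM in U2AF1(WT) vehicle mice and 14.8, 16.1, 16.1, 14.97 and 14.9 in U2AF1(S34F) sudemycin mice. It was higher in the latter (0.26, SE 0.08, FDR=0.0251), with overlap through mouse 2 of the former. U2AF1(WT) sudemycin mice had 14.2, 18.4, 19.1, 14.5 and 11.3 CPM and U2AF1(S34F) vehicle mice 14.4, 12.5, 14.8, 15.6 and 15.4, and *Bad* was called in none of the 4 single comparisons. Without mouse 2, which has a low B cell marker sum, it was higher in U2AF1(S34F) vehicle mice (0.24, FDR=0.0451), with U2AF1(S34F) mice of low sum kept. *Bad* went against the B cell markers (r=−0.821, rho=−0.875, permutation p=1e-05 for both, adjusted 0.00032, −0.871 and −0.821 within genotypes, −0.846 without the 2 farthest mice). A first exon upstream of the other, examined after the files were seen, opened 44.6% ± 11.1 of *Bad* transcripts with either first exon in U2AF1(WT) vehicle mice, 35.4% ± 11.4 in U2AF1(WT) sudemycin mice, 22.9% ± 6.51 in U2AF1(S34F) vehicle mice and 34.5% ± 6.32 in U2AF1(S34F) sudemycin mice (SD, n=5). Under vehicle the genotypes differed by −21.7 points, with 1 U2AF1(WT) mouse (27.1%) inside the range of the other group (13.9 to 30.4%), and the exact permutation p of 0.0159 did not pass the adjustment over 28 tests (0.370).

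Over all annotated splice choices of the 9 genes, edgeR called none. Cassette exons and alternative splice sites with enough reads numbered 11 or 12 per comparison, and 0 to 2 of them had an unadjusted p under 0.05, where 3.50, 3.43, 1.08, 1.24, 6.49 and 3.62% of all such events were called in the 4 single comparisons, the comparison that differs in both and the drug over both genotypes. limma called 1 of 11, the *Bcl2l1* upstream acceptor from the distal first exon, in the comparison that differs in both, where it called 910 of 31424 events. It called 0 members in each other comparison. The 8 pairs of alternative first exons gave 0 calls and 0 to 2 unadjusted p under 0.05 (0.399, 0.0305, 0.0308, 0.0611, 1.07 and 0.15% of all pairs called in the same order). A 20-base exon of *Bak1* (chr17:27158608-27158627) was mostly skipped, with 38 reads on its 2 inclusion junctions, all in U2AF1(WT) vehicle mouse 4 and U2AF1(WT) sudemycin mouse 8, against 9453 skipping reads.

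Other genes of the pathway were taken from 3 lists. Of 17 further BCL2 family genes, 14 were tested, and 2 were higher and 3 lower in U2AF1(S34F) under vehicle, 1 and 5 under sudemycin, 0 and 1 by the drug in U2AF1(WT) mice and 1 and 0 by the drug in U2AF1(S34F) mice. Over all genes 39.5, 36.8, 3.07 and 10.8% were called in these 4 comparisons, so the 5 of 14 and 6 of 14 called between genotypes lie near the share of all genes. Their median log2 fold change was −0.18 under vehicle and −0.31 under sudemycin, beside 0.00 and −0.03 for all genes. In the comparison that differs in both, 3 were higher and 6 lower, where 50.2% of all genes were called. *Pmaip1*, which encodes the MCL1-binding BH3-only protein NOXA, had the largest difference. It averaged 50.2 ± 4.91 CPM (SD, n=5) in U2AF1(WT) vehicle mice, 25.6 ± 5.75 in U2AF1(WT) sudemycin mice, 12.3 ± 3.34 in U2AF1(S34F) vehicle mice and 11.3 ± 1.27 in U2AF1(S34F) sudemycin mice. It fell by 2.04 on the log2 scale between the vehicle-treated genotypes (SE 0.16, FDR=4.23e-06), by 1.22 between the sudemycin-treated ones (FDR=0.000232) and by 0.98 with the drug in U2AF1(WT) mice (FDR=0.00329). *Bmf*, another BH3-only gene, was lower in U2AF1(S34F) vehicle mice (−0.97, SE 0.15, FDR=0.000573). *Bok*, an effector-like member at 4 to 34 counts per mouse, was lower under vehicle (−1.07, FDR=0.0432) and sudemycin (−1.08, FDR=0.0611). *Bax*, the second effector, rose under sudemycin in U2AF1(S34F) mice (0.24, SE 0.07, FDR=0.0626) and over both genotypes (0.30, SE 0.06, FDR=0.00432); it lay outside the rule for naming genes and was chosen after its values were seen. *Bbc3*, which encodes PUMA, was lower only in the comparison that differs in both genotype and drug among the comparisons run (−0.56, FDR=0.00537). *Bcl2a1a* and *Bcl2a1d* were lower in U2AF1(S34F) under sudemycin (−0.72 and −0.79), but these near-identical paralogs may share reads. *Bcl2l14* was higher in the same comparison (0.65, FDR=0.0882) and *Bcl2l15* in the comparison that differs in both (0.59, FDR=0.0610).

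Of 13 genes of the apoptosome, caspases and their inhibitors, 1 was higher and 1 lower in U2AF1(S34F) under vehicle, 2 and 2 under sudemycin, 0 were called for the drug in U2AF1(WT) mice and 1 was lower by the drug in U2AF1(S34F) mice, with a median of 0.05 under vehicle. The 2 of 13 and 4 of 13 called between genotypes compare with 39.5 and 36.8% of all genes. *Cycs* (cytochrome c) was higher in U2AF1(S34F) under sudemycin (0.70, SE 0.14, FDR=0.00337). The caspase inhibitor *Xiap* was higher under vehicle (0.19, FDR=0.0871), while *Birc3* was lower under vehicle (−0.34, FDR=0.00336) and *Birc2* fell with the drug in U2AF1(S34F) mice (−0.26, FDR=0.0293). *Casp8*, an initiator caspase of the death receptors, was higher in U2AF1(S34F) under sudemycin (0.19, FDR=0.0530), and *Apaf1*, the scaffold of the apoptosome, in the comparison that differs in both (0.17, FDR=0.0804). Of 8 regulators of BCL2 proteins, 3 were higher and 4 lower in U2AF1(S34F) under vehicle, 2 and 2 under sudemycin, and 0 were called with the drug in either genotype, with a median of −0.17 under vehicle. The 7 of 8 and 4 of 8 called between genotypes stand beside 39.5 and 36.8% of all genes, and nothing particular to the list is read from them. *Usp9x*, a deubiquitinase that stabilises MCL1 and lies on the X chromosome, was higher under vehicle (0.38, FDR=0.00873) and sudemycin (0.38, FDR=0.00247). *Foxo3*, a transcription factor for *Bcl2l11*, was lower under both (−0.40, FDR=0.00585 and −0.35, FDR=0.00714), as was *Trp53* (−0.39, FDR=0.00358 and −0.36, FDR=0.0576). *Vdac2*, which holds BAK in the mitochondrial membrane, was higher under both (0.32, FDR=0.0174 and 0.24, FDR=0.0788). Of the ubiquitin ligases that act on MCL1, *Fbxw7* (−0.21, FDR=0.0567) and the X-linked *Huwe1* (−0.18, FDR=0.0835) were lower and *March5* higher (0.17, FDR=0.09996) under vehicle.

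Across the 20 mice the genes most like each member were taken by Pearson's r of log2(CPM + 0.5) among 9770 genes, as a description. *Mcl1* was nearest to *Zc3h12a* (0.956), *Nfkbid* (0.953) and *Neat1* (0.9495), which within genotypes had r of 0.912, 0.849 and 0.926 (U2AF1(WT)) and 0.400, 0.621 and 0.412 (U2AF1(S34F)). *Bcl2l11* was nearest to *Atf3* (0.917), *Tnfaip3* (0.909) and *Plk2* (0.906), which had r of 0.872, 0.967 and 0.923 within U2AF1(WT) mice and 0.498, −0.258 and 0.053 within U2AF1(S34F) mice. *Bcl2* was nearest to *Ralgps2* (0.959), *Cd2* (0.953) and *Gimap8* (0.953), and *Bcl2l1* to *Srsf4* (0.923), *Sart3* (0.912) and *Anapc2* (0.906). Among pairs of members, *Bcl2* went against *Bak1* (r=−0.771, rho=−0.7695) and *Bad* (r=−0.778, rho=−0.821), and *Bak1* went with *Bad* (r=0.779, rho=0.768), each r with an adjusted permutation p of 0.0006533 over 28 pairs and with the same sign within both genotypes.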

How the data were processed

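RNA of bulk bone marrow from 20 mice was depleted of ribosomal RNA, and stranded libraries were read as paired ends of 126 bases. The authors aligned reads with TopHat2 2.0.8 to mm9 (NCBI build 37, per the labels), and deposited whole-number counts per gene and per splice junction without normalization; the gene counter is not given in the sources used here. Symbols and splice sites came from GENCODE M1 on the same build. Gene tests used edgeR 4.0.16 under R 4.3.3 (TMM, filterByExpr, robust quasi-likelihood, FDR<10%). Splicing events with a mean of 10 reads per mouse were tested in edgeR with a coefficient for each mouse and a dispersion of 0, and called at FDR<10% and a difference over 1 point. Junction reads per gene count (log2 with 0.5 added, mean of at least 50 of each) used limma 3.58.1, and shares used two-sided exact permutation tests. CPM divides by the summed gene counts after TMM scaling, RPM by the plain junction total, and kb by exonic length. Named genes beside the members were those called in a list with the largest change (at most 8 per list) and the 3 most like *Mcl1*, *Bcl2l1*, *Bcl2* and *Bcl2l11* by r. DESeq2 1.42.0, other filters, leaving out each mouse and a replicate block were alternatives. Members and lists were chosen with earlier results of these data known. Junction rates, the alternative end and first exon shares, and fits without 3 mice of low B cell marker sum were added after the data were seen. Scripts were tested on simulated data. Retained introns were not analysed here. Intervals and limits cover counting error only.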

Additional observations from a re-analysis of the deposited data

Results flagged for a closer look

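Each group of 5 mice was searched for 1 mouse far from the rest in gene level, junction reads per gene count or isoform share (a gap to the nearest mouse above 71% of the group's range). Of 84 groups 7 had such a mouse. Chance gives about 1 in 20 groups for continuous values, and this rate does not apply to the 3 isoform shares below, where the other 4 mice are at 0 and 1 mouse with any reads stands apart by construction. U2AF1(WT) vehicle mouse 2 stood out in *Bak1* (74.1 CPM against 45.96 to 53.25), in *Bad* (14.97 CPM against 11.73 to 12.64) and in *Mcl1* exon 2 skipping (0.1967% against 0 in the other 4). U2AF1(WT) vehicle mouse 3 had few *Mcl1* junction reads per gene count (0.1241 against 0.1492 to 0.1585), and U2AF1(S34F) sudemycin mouse 12 few of *Bak1* (0.7429 against 0.834 to 0.8578). The *Bcl2l1* short form reached 3.831% in U2AF1(WT) sudemycin mouse 8 and 1.46% in U2AF1(S34F) vehicle mouse 7, against 0 in the other mice of each group.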

How the results depend on the processing

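Between the vehicle-treated genotypes *Mcl1* (log2 fold change −0.72 to −0.59 without 1 mouse) and *Bcl2l11* (−0.86 to −0.74) were called in every alternative run. The 4 members called there became 2 at FDR<5%, 2 with no filter on low counts, 2 with the replicate block and 2 to 6 without 1 mouse. Under sudemycin the 2 called became 1 with the replicate block, 4 without the 3 mice of low B cell marker sum, and 2 to 3 without 1 mouse. For the drug in U2AF1(WT) mice the 1 called became 2 in DESeq2, 2 in one model of 20 mice, 3 without those 3 mice and 1 to 2 without 1 mouse. For the drug in U2AF1(S34F) mice it became 0 at FDR<5%, 0 with no filter, 0 in one model and 0 to 2 without 1 mouse. For the drug over both genotypes the 3 called became 0 at FDR<5%, 1 with no filter and 0 to 4 without 1 mouse. The comparison that differs in both gave 4 to 5 calls without 1 mouse (*Bcl2* was lost in one model, FDR=0.236), and the interaction gave 1 in DESeq2, 1 without the 3 mice and 0 to 1 without 1 mouse. *Bak1* between the sudemycin-treated genotypes changed sign without the 3 mice, from −0.01 to 0.20 (FDR=0.0430), in a fit that kept U2AF1(S34F) mice of low sum. Under vehicle *Bak1* was called only without U2AF1(WT) mouse 2 among fits that left out 1 mouse, and *Bad* without that mouse or without U2AF1(S34F) mouse 3 (0.23, FDR=0.0804). Events stayed at 0 except 1 with limma in the comparison that differs in both and 0 to 1 without 1 mouse under vehicle (*Bcl2l1*, an alternative donor of a first exon, 19.1 points without U2AF1(S34F) mouse 7, FDR=0.0563). Junction reads per gene count gave 1 to 2 calls over all comparisons: *Bcl2l11* under vehicle was lost in 6 fits without 1 mouse and at a minimum of 10 reads, and in the comparison that differs in both it was called in each alternative run. Shares gave 0. The cause of these changes was not tested. Over all events limma called 160, 176, 4, 0, 910 and 552 where edgeR called 1118, 1095, 344, 396, 2075 and 1162, so a count of 0 members rests on the tool as well as on depth. Replicate numbers shared by the genotypes showed no steady sign of pairs, as same-number deviations correlated between −0.24 and 0.51. Mice numbered 10 were each other's best match under sudemycin (0.51), and so few shared numbers cannot exclude pairing. No paired analysis was possible for the drug comparisons because the treatment groups of a genotype share no replicate numbers. *Bcl2l11* isoform shares rest on about 100 reads per mouse, which limits them to large differences. The genotype is inseparable from the sex-linked transcripts.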
